A study of Homo sapiens with 4 samples.

Results

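NR6A1, PDE4D and REEP1 were the 3 protein-coding genes with the most cohesin loops listed under both replication inhibitors and under neither vehicle, in lists of called loops from a human B lymphoblastoid line. Such loops are called drug-only here. The genes were selected on that listing among 9473 protein-coding genes with a listed loop, of 19974 in the RefSeq table, so their number of drug-only loops is a description and carries no test. Every loop with an anchor on the body of one of them was then taken, whatever library listed it, which gave 84 distinct loops of 41846. NR6A1 had 36 of them, PDE4D 27 and REEP1 21.

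HiChIP for SMC1, a cohesin subunit, was performed on GM12878 cells, B lymphoblasts immortalised by Epstein-Barr virus; the assay ligates nearby pieces of fixed chromatin and pulls down those bound by the protein. The treated cultures received 0.4 µM aphidicolin (APH), which inhibits the DNA polymerases of the replication fork, or 0.2 mM hydroxyurea (HU), which inhibits the enzyme that makes deoxynucleotides, each for 18 h. The culture matched to APH received dimethyl sulfoxide (DMSO) and the culture matched to HU received water (H2O). Each group held 1 library, so every difference below is between libraries and has no replicate check, and no test was possible. In the labels, the titles give a different lymphoblastoid line from the GM12878 of all other fields, and loop lists hold no expression with which to check the cell type.

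Cohesin is a ring complex that extrudes chromatin into loops and is held up mainly at sites bound by CTCF, so pairs of such sites come into contact more often than their distance alone would give. Promoters and enhancers are brought together within and between these loops. NR6A1 encodes an orphan nuclear receptor, also named germ cell nuclear factor, which represses pluripotency genes in early development, and its body also holds the genes of miR-181a-2 and miR-181b-2 with their host transcript MIR181A2HG. PDE4D encodes a phosphodiesterase that degrades cyclic AMP and is made in several isoforms from many start sites. REEP1 encodes a protein that shapes tubules of the endoplasmic reticulum, and its mutations cause hereditary spastic paraplegia, a disease of long motor axons.

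All 3 genes lie on the minus strand. NR6A1 spans 254 kb at chr9:124517275-124771311 with 1 start site in the table, PDE4D spans 1553 kb at chr5:58969038-60522128 with 8 start sites, and REEP1 spans 124 kb at chr2:86213993-86338083 with 2 start sites (GRCh38.p14, the same build as hg38). Per 100 kb of gene, NR6A1 carried 14.2 loops, PDE4D 1.74 and REEP1 16.9. Per 100 kb, drug-only loops numbered 3.15 in NR6A1, 0.322 in PDE4D and 4.03 in REEP1. The sequences below belong to the places where start sites or transcripts and loop anchors met or nearly met. They are taken from RefSeq (GRCh38.p14) and read 5′ to 3′. The NR6A1 promoter, chr9:124771262-124771561 on the minus strand, lies inside the anchor that carried most loops of its gene, and its capitals mark the bases from the transcription start on. The PDE4D promoter of the start site at 58999898, chr5:58999849-59000148 on the minus strand, is shown because its capitals fall inside an anchor while the start itself lies 103 bases outside it. The mature miR-181a-5p and miR-181b-5p come from chr9:124692480-124692502 and chr9:124693725-124693747 on the plus strand, within NR6A1, beside an anchor of a drug-only loop. Their capitals mark the seed, bases 2 to 8, which they share.
NR6A1 promoter: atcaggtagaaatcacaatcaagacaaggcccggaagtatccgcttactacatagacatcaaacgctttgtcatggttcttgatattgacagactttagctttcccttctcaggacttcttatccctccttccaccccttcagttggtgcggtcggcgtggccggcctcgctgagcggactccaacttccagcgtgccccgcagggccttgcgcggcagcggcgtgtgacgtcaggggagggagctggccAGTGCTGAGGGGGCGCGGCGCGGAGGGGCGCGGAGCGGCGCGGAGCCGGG
PDE4D promoter: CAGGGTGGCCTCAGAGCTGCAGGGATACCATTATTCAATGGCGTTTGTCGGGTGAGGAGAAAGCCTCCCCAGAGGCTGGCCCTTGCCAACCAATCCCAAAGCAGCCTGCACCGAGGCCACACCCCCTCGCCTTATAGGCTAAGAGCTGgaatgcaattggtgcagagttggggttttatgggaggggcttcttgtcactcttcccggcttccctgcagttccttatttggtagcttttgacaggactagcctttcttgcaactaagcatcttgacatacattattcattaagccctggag
hsa-miR-181a-5p: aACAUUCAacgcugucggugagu
hsa-miR-181b-5p: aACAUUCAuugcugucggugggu

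The core of the CTCF motif, searched by its letters on both strands, was found in 0 of the 11 promoters of the 3 genes and in 845 of 35116 promoters of the table (2.41%), each taken from 250 bases before to 50 bases after the start. No match says only that these letters are absent from these windows. The anchors themselves were not searched.

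The deposited lists give contact counts between bins of 5 kb for called loops only. The APH library listed 27395 loops and the HU library 21448, against 17660 in DMSO and 22446 in H2O. The lowest listed count was 12 and the median 20 in every library. A pair of bins that a library does not list is therefore not a 0, and the total depth is unknown. The 9529 loops listed in all 4 libraries held 376948 counts in APH and 322048 in HU, against 300320 in DMSO and 325634 in H2O, and these totals scale all ratios below.

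Drug-only loops numbered 8 in NR6A1, 5 in PDE4D and 5 in REEP1, while 0 loops of the 3 genes were listed by both vehicle libraries and no drug library. Of all 41846 loops, 2380 were drug-only (5.69%) and 849 were vehicle-only (2.03%). Of all genes with a listed loop, 7430 had no drug-only loop, 1571 had 1, 371 had 2, 84 had 3 and 14 had 4, so the 3 genes make up 0.0317% of 9473. The 14 genes just outside, with 4 each, were ABTB2, AMN1, AOPEP, CTIF, FES, FXYD6-FXYD2, IRAG1, KALRN, MACF1, NT5M, OLFM2, OSBPL3, PTPRJ and ZFP36L2. At least 1 drug-only loop was found in 2043 genes (21.6%).

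**Figure D1:**
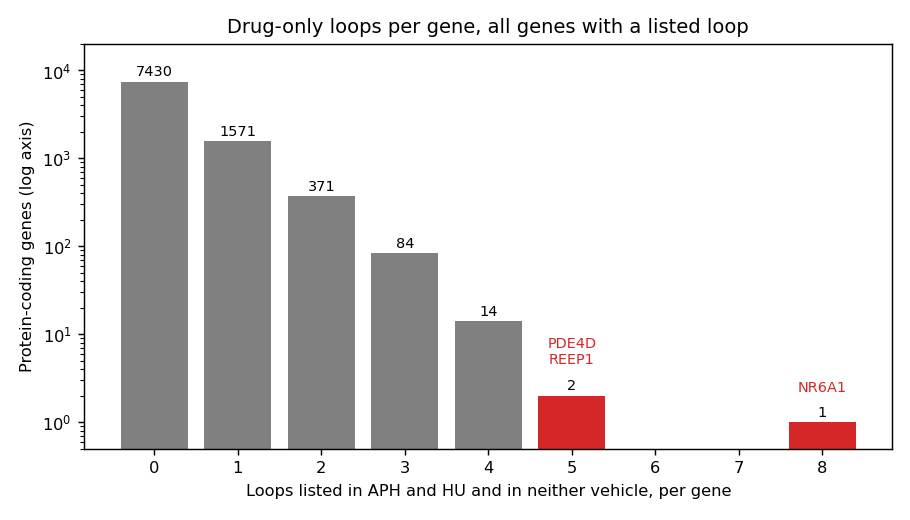
Number of protein-coding genes (vertical log axis) by their number of loops listed in APH and HU and in neither vehicle (horizontal axis), over the 9473 genes with a listed loop. The red bars are REEP1 and PDE4D at 5 and NR6A1 at 8, the values by which they were selected, and the grey bars are all other genes.

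Loops of the other listing patterns were also found at all 3 genes. All 4 libraries listed 9 loops of NR6A1, 9 of PDE4D and 3 of REEP1, which is 21 of the 84 (25%), against 22.8% of all loops. A further 7 loops (8.33%) were listed everywhere except in DMSO, the shortest list, and 5 of these lay at NR6A1; the share over all loops was 4.9%. A single library listed 8 loops of NR6A1, 12 of PDE4D and 8 of REEP1, together 28 (33.3%), against 45.8% of all loops. Loops seen in at least 1 vehicle and in no drug library numbered 2 in NR6A1, 3 in PDE4D and 2 in REEP1, each of them in a single vehicle. That is 7 (8.33%), against 19.6% of all loops, a share that bears on the contrast the genes were selected on. The 84 loops also include the 18 drug-only loops (21.4%, against 5.69% of all loops). The selection thus lowered every other share of the 84 given here, so these shares are descriptions.

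**Figure D2:**
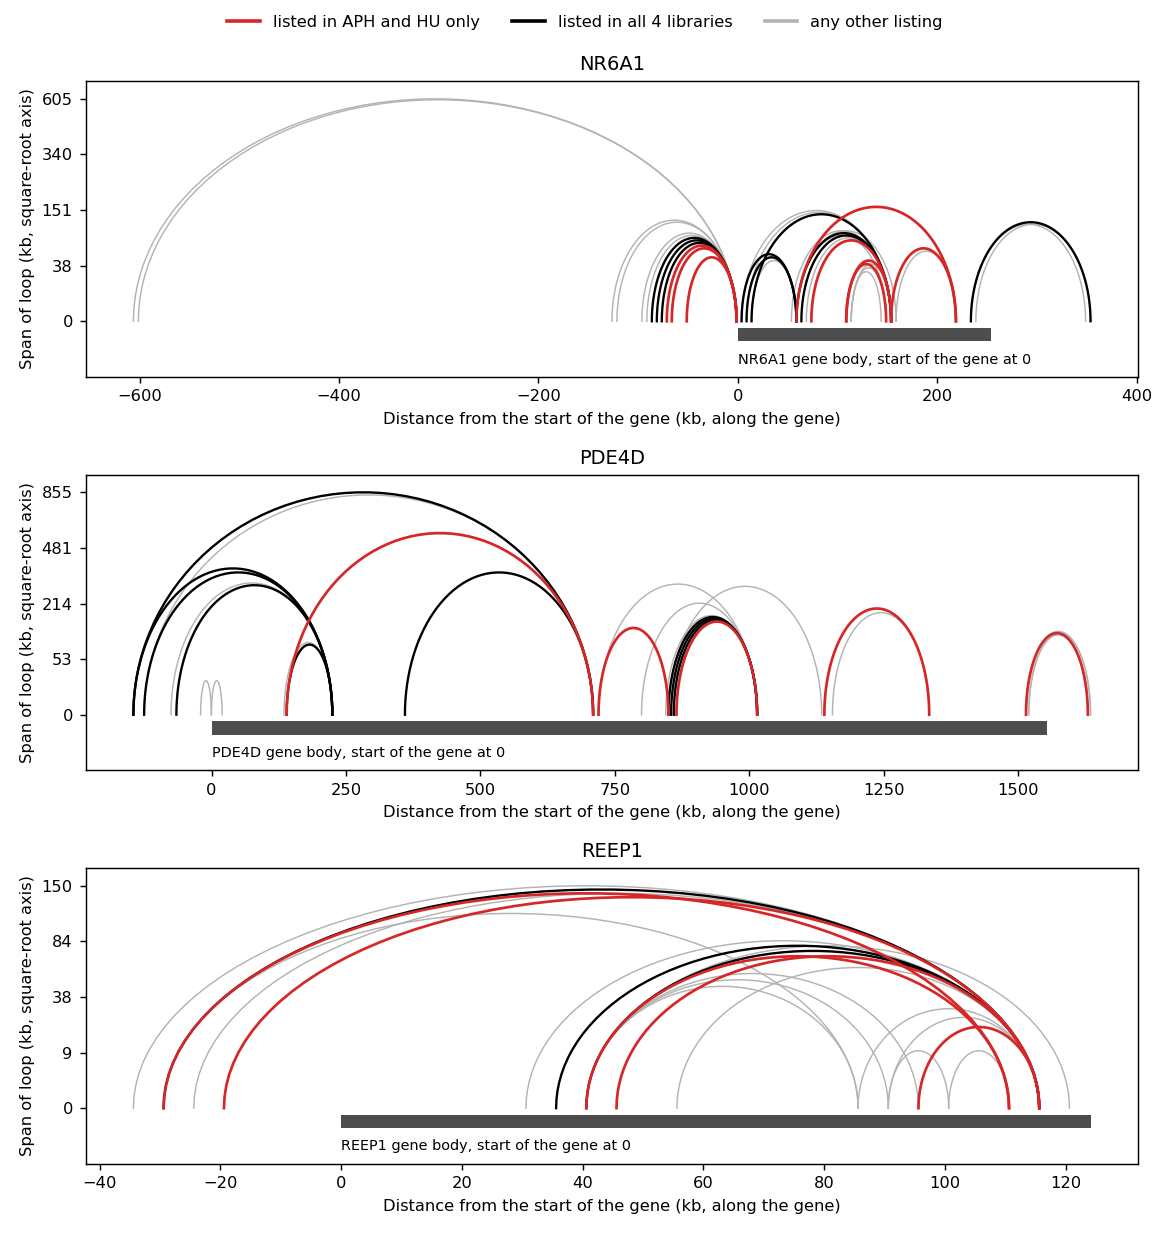
Loops of NR6A1, PDE4D and REEP1 drawn as arcs between their anchors, by distance from the start of the gene (horizontal axis, kb, positive into the gene) and by span (vertical square-root axis, kb). Red arcs are the 8, 5 and 5 drug-only loops, black arcs the 9, 9 and 3 loops listed in all 4 libraries and grey arcs the rest, and most red arcs share an end with a black one.

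At NR6A1 the listed loops numbered 27 in APH and 29 in HU, against 14 in DMSO and 19 in H2O. Their counts summed to 882 in APH and 805 in HU, against 443 in DMSO and 636 in H2O. The anchors covered 125 kb in APH and 140 kb in HU, against 75 kb in DMSO and 100 kb in H2O, while the mean count per listed loop was 32.7 in APH and 27.8 in HU, against 31.6 in DMSO and 33.5 in H2O. The drug libraries thus listed more loops over more anchors, with a mean count that for APH lay between those of the vehicles and for HU below both. Per 1000 loops of its own list, NR6A1 had 0.986 in APH and 1.35 in HU, against 0.793 in DMSO and 0.846 in H2O. The numbers of loops, summed counts, covered lengths and these rates include the 8 drug-only loops by which the gene was selected. Those loops add to both drug libraries and to neither vehicle, so the selection itself raised these values under the drugs. With a median of 24 counts in APH and 18.5 in HU, they also lowered the mean counts of the drugs. The place of APH and HU among the mean counts is thus not free of the selection.

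The start of NR6A1 lay in the anchor chr9:124770001-124775000, which carried 12 of its loops, all of them to bins upstream of the gene. This anchor also holds the start sites of the uncharacterised transcripts LOC124900274 and LOC107987126. Its strongest partner was the bin 80 kb upstream that holds the start of WDR38, a WD repeat protein gene, and that loop had 145 counts in APH and 121 in HU, against 108 in DMSO and 108 in H2O. The flanking bins at spans of 75 and 85 kb were also listed in all 4 libraries. The first had 43 counts in APH and 34 in HU, against 29 in DMSO and 39 in H2O, and the second had 35 in APH and 25 in HU, against 21 in DMSO and 36 in H2O. On the near side of WDR38 lay 3 drug-only loops of the same anchor, at spans of 50, 65 and 70 kb. They had 26, 24 and 25 counts in APH, and 28, 18 and 19 in HU. The bin reached at 50 kb lay 19127 bases from the nearest start in the table, that of OLFML2A, and overlapped no gene.

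On the far side of WDR38 the start anchor of NR6A1 met the bin with the starts of RPL35, a protein of the large ribosomal subunit, and ARPC5L, a subunit of the actin-nucleating Arp2/3 complex. This loop was listed with 23 counts in APH and 21 in HU, against 26 in H2O, and not in DMSO. A loop to GOLGA1, a golgin of the trans-Golgi, had 28 counts in HU, against 15 in DMSO and 17 in H2O, and was not listed in APH. The longest loop of the gene, 605 kb upstream, had 13 counts and was in the APH list only, beside one of 600 kb with 16 counts in APH and 13 in HU, against 18 in H2O.

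Inside NR6A1 the anchor chr9:124615001-124620000, 153.8 kb from the start, carried 11 loops. Its loop to chr9:124710001-124715000 was the strongest within the gene, with 133 counts in APH and 108 in HU, against 89 in DMSO and 112 in H2O. Drug-only loops ran from this anchor to the bins at 218.8, 108.8 and 73.8 kb from the start. They had 32, 24 and 22 counts in APH, and 20, 25 and 16 in HU. The bin at 108.8 kb, chr9:124660001-124665000, lies in MIR181A2HG and was an anchor of 2 loops, both drug-only, the second of them to the bin after the 11-loop anchor, with 16 counts in APH and 15 in HU. The bin at 73.8 kb, chr9:124695001-124700000, ends 1 drug-only loop and lies 1203 bases from MIR181B2 and 2450 bases from MIR181A2, whose mature sequences stand above. A loop from the same 11-loop anchor to the very next bin, chr9:124700001-124705000, was listed by H2O alone with 14 counts. The bin of MIR181A2HG at 113.8 kb, which adjoins that at 108.8 kb, was also listed in a vehicle. Its loop there had 36 counts in APH and 32 in HU, against 38 in H2O. The anchor chr9:124550001-124555000 was in no vehicle list: its 3 loops summed to 47 counts in APH and 51 in HU, and its drug-only loop of 160 kb had 15 counts in APH and 16 in HU.

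At PDE4D the listed loops numbered 22 in APH and 17 in HU, against 10 in DMSO and 12 in H2O. Their counts summed to 491 in APH and 345 in HU, against 209 in DMSO and 256 in H2O. The anchors covered 125 kb in APH and 110 kb in HU, against 55 kb in DMSO and 80 kb in H2O, with a mean count of 22.3 in APH and 20.3 in HU, against 20.9 in DMSO and 21.3 in H2O. As at NR6A1, the drug libraries listed more loops over more anchors, and here the mean counts of the 4 libraries lay between 20.3 and 22.3. Per 1000 loops of its own list, PDE4D had 0.803 in APH and 0.793 in HU, against 0.566 in DMSO and 0.535 in H2O. Here too, all values but the mean counts were raised under the drugs by the selected loops, the 5 drug-only loops of PDE4D. These loops, with a median of 16 counts in APH and 16 in HU, lowered the mean counts of the drugs.

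None of the 8 start sites of PDE4D lay in an anchor. The nearest approach was the start at 58999898, whose promoter reaches into the bin chr5:59000001-59005000. That bin was listed with 15 counts in APH in a loop to chr5:58890001-58895000 and with 13 counts in HU in a loop to the bin before it, and in no vehicle. A drug-only loop joined the next bin of the gene to the same downstream place, chr5:58890001-58895000, with 21 counts in APH and 19 in HU, and the H2O library listed a loop 1 bin away with 12 counts.

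Within the gene, the anchor chr5:59505001-59510000 carried 7 loops, all in the APH list. Its loops to 3 consecutive bins, 155, 160 and 165 kb away, were in every list. That of 155 kb had 49 counts in APH and 31 in HU, against 25 in DMSO and 29 in H2O. That of 165 kb had 42 counts in APH and 33 in HU, against 28 in DMSO and 34 in H2O. The drug-only loop of 150 kb adjoined these, with 21 counts in APH and 15 in HU. The other 3 drug-only loops of PDE4D had no vehicle loop within 2 bins. They spanned 195, 130 and 570 kb, with 13, 15 and 16 counts in APH and 16, 12 and 20 in HU. The loop of 570 kb, from chr5:59810001-59815000 to chr5:60380001-60385000, was the longest drug-only loop of the 3 genes, and loops listed in all 4 libraries ended in each of its anchors.

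Toward the 5′ end of PDE4D, the anchor chr5:60295001-60300000 carried 6 loops. Its loop of 85 kb had 44 counts in APH and 34 in HU, against 27 in DMSO and 26 in H2O. It also had 4 loops past the start of the gene. That of 290 kb, to a bin with no gene, had 24 counts in APH and 21 in HU, against 25 in DMSO and 24 in H2O. The other 3 reached the body of DEPDC1B, a DEP domain protein gene, and the shortest of them, 300 kb, was listed by APH alone with 14 counts. Those of 350 and 370 kb were in every list. The first had 18 counts in APH and 16 in HU, against 20 in DMSO and 28 in H2O, and the second had 16 in APH and 12 in HU, against 12 in DMSO and 13 in H2O. The 2 shortest loops of PDE4D, 20 kb each, met at chr5:60520001-60525000, the bin that holds the 5′ end of the gene body, within the long non-coding RNA PART1. The one into the gene was listed by HU alone with 33 counts, and the one away from it by APH alone with 46 counts.

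At REEP1 the listed loops numbered 17 in APH and 12 in HU, against 8 in DMSO and 7 in H2O. Their counts summed to 471 in APH and 305 in HU, against 214 in DMSO and 205 in H2O. The anchors covered 65 kb in APH and 60 kb in HU, against 45 kb in DMSO and 40 kb in H2O, with a mean count of 27.7 in APH and 25.4 in HU, against 26.8 in DMSO and 29.3 in H2O. In both pairs the drug library was thus higher in loops, summed counts and covered length, while the mean count was higher in APH than in DMSO and lower in HU than in H2O. Per 1000 loops of its own list, REEP1 had 0.621 in APH and 0.559 in HU, against 0.453 in DMSO and 0.312 in H2O. As at the other genes, all values but the mean counts were raised under the drugs by the selected loops, the 5 drug-only loops of REEP1. These loops, with a median of 15 counts in APH and 15 in HU, lowered the mean counts of the drugs. The order of the libraries in mean count is thus not free of the selection either.

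A single anchor near the 3′ end of REEP1, chr2:86220001-86225000, took part in 12 of the 21 loops. It carried 10 loops in APH and 9 in HU, against 5 in DMSO and 5 in H2O, and its counts summed to 341 in APH and 243 in HU, against 157 in DMSO and 164 in H2O. The values of both drugs at this anchor include 3 drug-only loops. Its strongest loop ran 75 kb into the gene, with 104 counts in APH and 74 in HU, against 54 in DMSO and 68 in H2O. The second ran 145 kb, past the 5′ end of the gene, with 75 counts in APH and 42 in HU, against 58 in DMSO and 53 in H2O. HU was thus the lowest library in the longer of these loops and not in the shorter. Neither start site of REEP1, at 86338083 and 86337626, lay in an anchor, and the nearest anchors lay 27626 bases inside the gene and 16918 bases upstream of a start.

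The drug-only loops of REEP1 fell beside these strong loops. From the anchor above, they ran 20, 70 and 135 kb, with 26, 15 and 15 counts in APH and 34, 15 and 12 in HU. From the next bin of the gene, chr2:86225001-86230000, they ran 70 and 140 kb, with 20 and 15 counts in APH and 22 and 14 in HU. All 5 lay within 1 bin of a loop listed in a vehicle. Short loops near the 3′ end also differed between the libraries: 2 loops of 10 kb, with 24 and 20 counts, were in the DMSO list only, and a loop of 30 kb with 31 counts was in the APH list only.

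**Figure D3:**
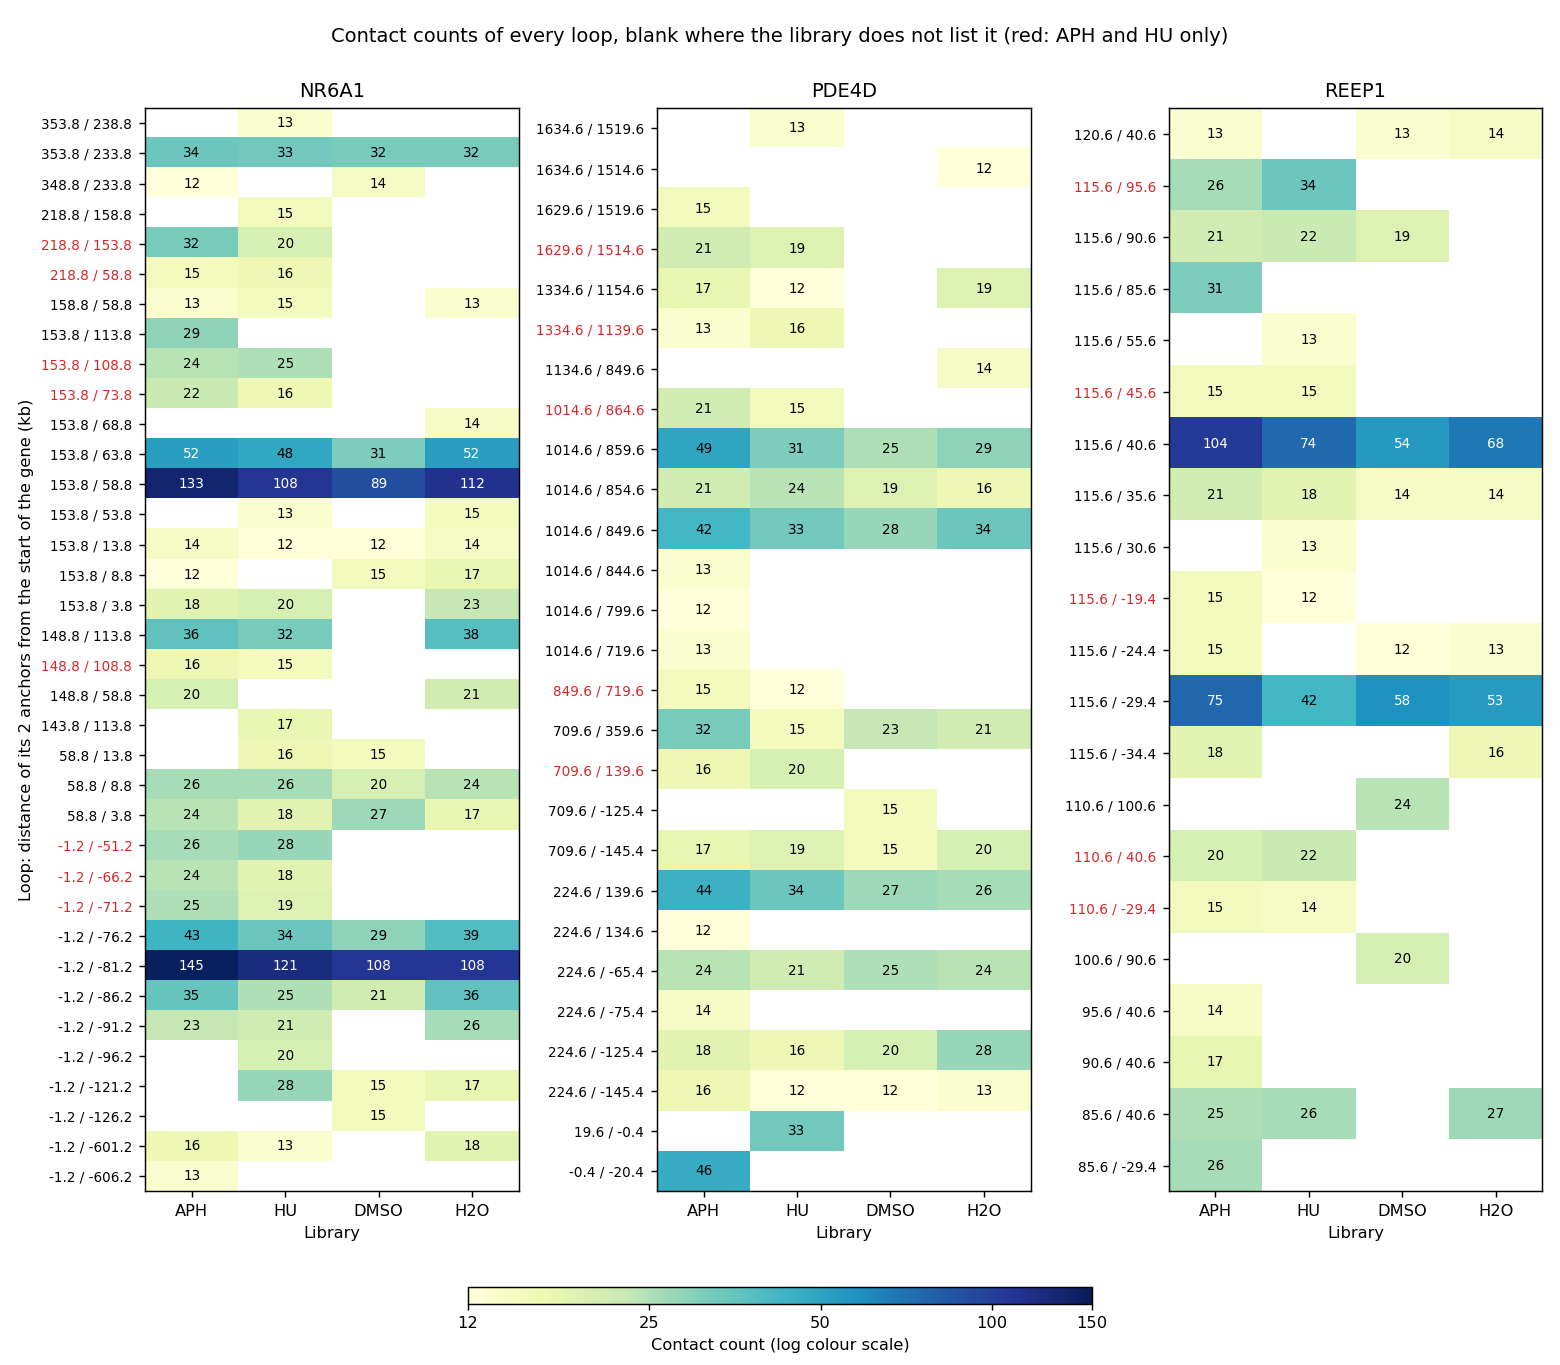
Contact counts of the 84 loops of NR6A1, PDE4D and REEP1 in each library (columns), with each loop (row) named by the distance of its anchors from the start of the gene in kb, positive into the gene. Cells are blank where a library does not list the loop, red names are drug-only loops, and the counts of these lie between 12 and 34.

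The 18 drug-only loops had counts near the median of the whole list in APH and below it in HU. In APH they had a median of 20.5 counts and in HU 17, against 18 and 17 over all 2380 drug-only loops. The median over all listed loops was 20 in APH and 20 in HU. By gene, the APH median was 24 in NR6A1, 16 in PDE4D and 15 in REEP1, and the HU median was 18.5, 16 and 15. Fewer than 24 counts, which is 2 times the lowest listed count, were found in 12 of the 18 in APH and 15 in HU, against 1804 and 1935 of all 2380. The observed count over the caller's background count had a median of 4.18 in NR6A1, 8.42 in PDE4D and 3.81 in REEP1 in APH, and of 3.41, 8.67 and 3.99 in HU. The PDE4D loops were the longest, with a median span of 150 kb, against 65 kb in NR6A1, 70 kb in REEP1 and 75 kb over all drug-only loops.

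Many drug-only loops lay near loops that the vehicle libraries did list. A vehicle loop lay within 1 bin at each end for 4 of 8 loops in NR6A1, 2 of 5 in PDE4D and 5 of 5 in REEP1. That is 11 of 18 (61.1%), against 43.3% of all drug-only loops. At least 1 anchor was used by another loop in a vehicle for 18 of 18, against 88.1% over all drug-only loops. Both anchors were so used for 3 of 18 (16.7%), against 29.4%, and these were 1 loop in PDE4D and 2 in REEP1. In the authors' clusters of adjoining loops, 9 of the 18 stood in APH, and 9 in HU, in a cluster that also held a loop listed in all 4 libraries, against 1047 and 1025 of all 2380.

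Depth differed between APH and DMSO, and much less between HU and H2O. By the totals over shared loops, DMSO had 0.797 of the depth of APH and H2O had 1.01 times that of HU. At the depth of DMSO, the APH count fell below the listed minimum of 12 for 1 of 8 loops in NR6A1, 2 of 5 in PDE4D and 3 of 5 in REEP1, together 6 of 18, against 739 of all 2380. At the depth of DMSO, the HU count fell below 12 for 2 of the 18, and at the depth of H2O the APH count did so for 1. H2O was not shallower than HU, so that pair gives no such count. The part of depth in the listing was not tested beyond these counts.

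Loops listed in all 4 libraries are the only ones with a count on both sides of each contrast, so counts were compared over them. The contrast is the one the genes were selected on, and the ratios are given as descriptions, with 95% exact conditional binomial intervals for counting error only. For NR6A1 the 9 loops summed to 506 counts in APH and 425 in HU, against 369 in DMSO and 434 in H2O. Scaled, APH vs DMSO had a log2 ratio of 0.13 (interval -0.07 to 0.33), and HU vs H2O had -0.01 (-0.21 to 0.18). For PDE4D the 9 loops summed to 263 counts in APH and 205 in HU, against 194 in DMSO and 211 in H2O. Here APH vs DMSO had 0.11 (-0.16 to 0.39), and HU vs H2O had -0.03 (-0.31 to 0.26). Neither gene differed between a drug and its vehicle beyond counting error. The H2O vs DMSO ratio, between libraries without drug, was 0.12 in NR6A1 and 0.00 in PDE4D.

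For REEP1 the 3 loops summed to 200 counts in APH and 134 in HU, against 126 in DMSO and 135 in H2O. APH vs DMSO had a ratio of 0.34 (0.01 to 0.67), HU vs H2O one of 0.01 (-0.35 to 0.36) and H2O vs DMSO one of -0.02 (-0.38 to 0.35). The APH value rested on the strongest loop, whose own ratio was 0.62 (0.13 to 1.12), and without it the ratio was 0.09 (-0.37 to 0.55). It also turned to -0.04 when libraries were scaled by all their listed loops, a scaling that moves every APH vs DMSO ratio by -0.38. The medians over the 4831 genes with a shared loop were -0.02 in APH vs DMSO, while HU vs H2O and H2O vs DMSO each had 0.00.

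**Figure D4:**
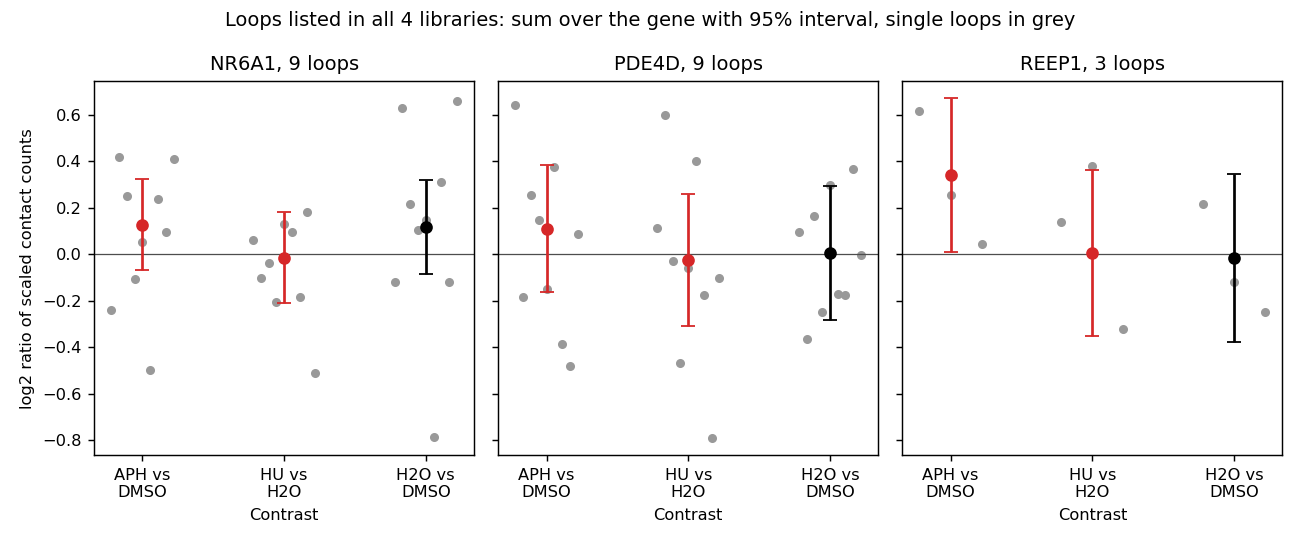
Log2 ratio of scaled contact counts (vertical axis) over loops listed in all 4 libraries, in each gene and each of the 3 contrasts. Large points are sums over the 9, 9 and 3 loops with their 95% intervals, small grey points are single loops, and of the drug contrasts only REEP1 in APH vs DMSO has an interval that leaves out 0.

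None of the 3 genes was 1.5-fold higher or lower in any contrast. In APH vs DMSO, 4.08% of the 4831 genes were at least 1.5-fold higher and 4.51% at least 1.5-fold lower. In HU vs H2O these shares were 6.69% and 4.33%, and in H2O vs DMSO they were 2.86% and 3.5%. Among single shared loops, APH vs DMSO had 1 loop of PDE4D and 1 of REEP1 at least 1.5-fold higher and 0 loops lower. Over all 9529 shared loops, 6.59% were higher and 7.87% lower by that fold. The PDE4D loop was the one of 155 kb, with a log2 ratio of 0.64 (-0.08 to 1.40). In HU vs H2O, 1 loop of PDE4D was higher and 1 was lower, where 8.42% of all shared loops were higher and 8.61% lower. In H2O vs DMSO, 2 loops of NR6A1 were higher and 1 lower, where 5.5% of all were higher and 5.34% lower. Of the 21 shared loops, the interval left out 0 for the single REEP1 loop in APH vs DMSO and for no other loop in these contrasts.

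The number of drug-only loops depended on how a loop was counted, except that widening each gene by 5 kb at both ends gave the same 8, 5 and 5. When anchors in different libraries could differ by 1 bin, 4 of the drug-only loops were left in NR6A1, 3 in PDE4D and 0 in REEP1. NR6A1 then had 5, as a loop that HU alone listed was counted too. When at least 24 counts were asked of each library, 2 were left in NR6A1, 0 in PDE4D and 1 in REEP1. With the minimum count raised in proportion to depth, NR6A1 kept 7, PDE4D 3 and REEP1 2. Under that rule vehicle-only loops appeared, 2 in NR6A1 and 1 in REEP1. When both anchors had to lie on the gene, NR6A1 had 5, PDE4D 4 and REEP1 3. With anchors within 5 kb of an end of the gene, NR6A1 had 3, all at its start, and PDE4D and REEP1 had 0.

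**Figure D5:**
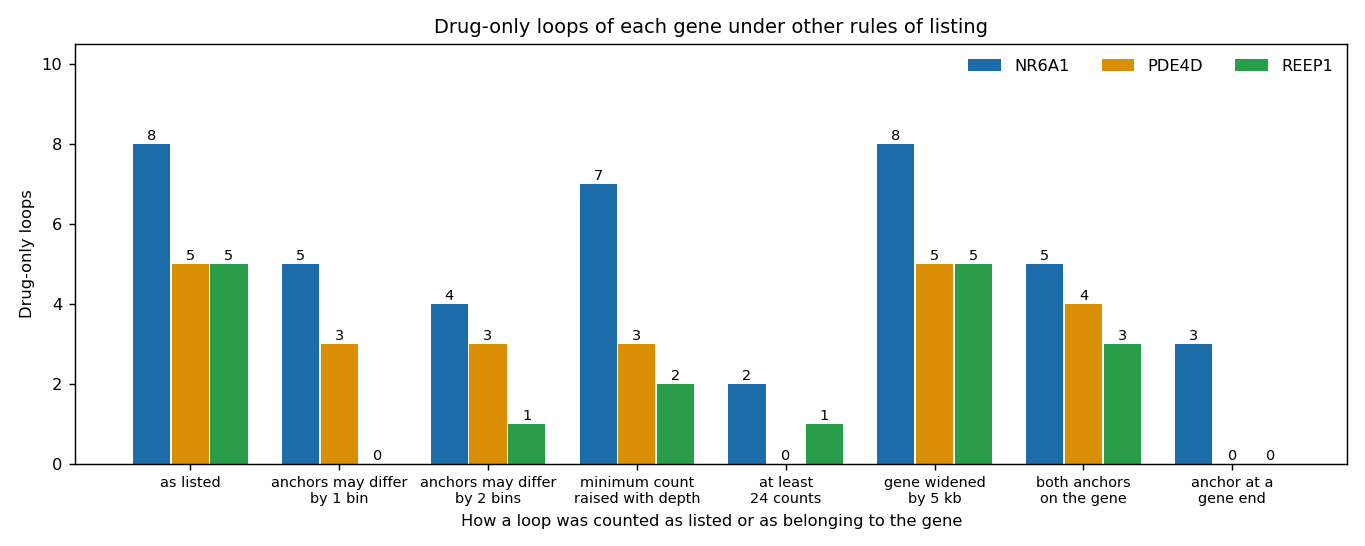
Number of drug-only loops (vertical axis) of NR6A1, PDE4D and REEP1 under the listing as deposited and 7 other rules (horizontal axis). With the gene widened by 5 kb the counts are 8, 5 and 5 as listed; under the other rules NR6A1 has 2 to 7, PDE4D 0 to 4 and REEP1 0 to 3.

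The share of its distinct loops that each library listed gives a profile for every gene. For NR6A1 it was 75% in APH and 80.6% in HU, against 38.9% in DMSO and 52.8% in H2O. For PDE4D it was 81.5% in APH and 63% in HU, against 37% in DMSO and 44.4% in H2O. For REEP1 it was 81% in APH and 57.1% in HU, against 38.1% in DMSO and 33.3% in H2O. Over 1958 genes with at least 8 loops, medians were 66.7% in APH and 50% in HU, against 46.2% in DMSO and 58.3% in H2O. The drug-only loops by which NR6A1, PDE4D and REEP1 were selected raise their drug shares and lower their vehicle shares. The selection itself thus moved these profiles away from the medians in that direction, so the comparison is a description and no test. By Euclidean distance over the 4 libraries, in percentage points, the genes most like NR6A1 were ACP3 and SCRN2 at 5.85 and ATG2B at 6.36. Those most like PDE4D were TIAM2 at 4.97, KALRN at 5.06 and ALOXE3 at 5.88, and those most like REEP1 were LHFPL3 at 5.83 and CHURC1-FNTB and RNPEP at 5.94. The likeness is in the listing only, and the points share libraries and depth.

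The relatives of each gene were described from lists chosen by function, each of which includes the gene selected for its drug-only loops. Of 41 nuclear receptors, 25 had a listed loop and 10 of these had a drug-only loop, where 21.6% of all genes did, 18 loops in all, of which NR6A1 held 8. PPARD, a receptor for fatty acids, had 2, and NR4A1, RARG, RXRA, RXRG, RORA, RORB, THRA and HNF4A had 1 each. Vehicle-only loops numbered 2 in RARA and 1 in HNF4A. The share of 21.6%, here and for the lists below, is not matched for the number of loops per gene. Of the 16 with a shared loop, 0 were at least 1.5-fold higher and 3 lower in APH vs DMSO, with a median log2 ratio of -0.04, and 2 were higher and 3 lower in HU vs H2O, with a median of -0.03. THRA, a thyroid hormone receptor with 1 shared loop, was lowest in APH vs DMSO at -0.98 and highest in HU vs H2O at 1.48, and NR2F1, an orphan receptor, was highest in APH vs DMSO at 0.28. That THRA loop had 33 counts in APH and 55 in HU, against 52 in DMSO and 20 in H2O, so its vehicles differed by more than APH and DMSO did. RORA, a retinoid-related orphan receptor, was lowest in HU vs H2O at -0.98, on 1 loop with 20 counts in APH and 17 in HU, against 27 in DMSO and 34 in H2O.

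Of 37 genes of cyclic AMP signalling, 26 had a listed loop and 8 of these had a drug-only loop, against 21.6% over all genes, 13 loops in all, of which PDE4D held 5. PDE4B, its close relative in immune cells, had 2 drug-only loops among 56, and PDE4C, PDE8A, PDE2A and PDE10A, further phosphodiesterases, had 1 each, as did the adenylyl cyclase ADCY5 and RAPGEF4, an exchange factor opened by cyclic AMP. PDE7A, PRKACB, AKAP13 and RAPGEF3 had 1 vehicle-only loop each. Of the 20 with a shared loop, 0 were 1.5-fold higher or lower in APH vs DMSO, between CREM at -0.38 and PDE3B at 0.38. In HU vs H2O 1 was higher, ADCY5 at 0.64, and 0 were lower, the lowest being ADCY3 at -0.31.

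Of 23 genes of endoplasmic reticulum shaping and hereditary spastic paraplegia, 17 had a listed loop and 6 of these had a drug-only loop, again against 21.6% over all genes, 11 loops in all, of which REEP1 held 5. REEP4, of the same family, had 2 among its 4 loops, and the atlastins ATL2 and ATL3 and the reticulons RTN1 and RTN3, which fuse and curve the tubules, had 1 each. ATL3 also had 1 vehicle-only loop. Of the 7 with a shared loop, 0 were 1.5-fold higher or lower in APH vs DMSO, between REEP5 at -0.16 and ATL3 at 0.51. In HU vs H2O 0 were higher and 1 lower, ATL3 at -1.02, on 1 loop with 43 counts in APH and 18 in HU, against 24 in DMSO and 37 in H2O, and the highest was the kinesin KIF5A at 0.33. In each list the gene selected here thus held the most drug-only loops, which its selection fixed.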

How the data were processed

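SMC1 HiChIP libraries of GM12878 were analysed, 1 per group (APH, HU, DMSO, H2O), grouped by the treatment in the labels. Per the submitters' processing notes, bcl2fastq 2.17 and MACS3 3.0.1 were used on build hg38. For aligner, loop caller and filters, no name is given in the sources used here. Each library's list was deposited without a header, so columns were read from their values. The deposited counts are whole contact counts per pair of 5 kb bins, at least 12, not normalized. The deposited signal column is taken as the expected count, with observed over expected at least 2. The deposited column taken as an adjusted p-value reaches at most 0.01. The deposited score was not used, and the cluster labels were used to describe loops.

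Chromosomes 1 to 22 and X were used. Loops were matched by identical bins and assigned to a gene by an anchor on its RefSeq body (GRCh38.p14). Scaling used each library's total over the 9529 loops that all 4 libraries list, with no pseudocount. Intervals (95%, exact conditional binomial) cover counting error only and may be too narrow, since PCR copies cannot be told from separate molecules. With 1 library per group, no p-value was computed. A gene or loop is counted as higher or lower at 1.5-fold. The genes, their relatives and the other lists were chosen with earlier results of these data known. Named genes are the 3 selected, genes at their anchors, the 3 most alike in listing to each, and the extremes of each list. Relatives with a drug-only or a vehicle-only loop and the genes with 4 drug-only loops were named after their values were seen. The shared-loop ratio of a gene and its interval were tested on simulated counts, and the assignment of loops to genes on made-up loops. The simulated counts were independent Poisson draws, the model that the interval assumes. They held no PCR copies and no spread between libraries, so they test the computation only. The other steps were not simulated. Python 3.11.15, numpy 2.4.6, pandas 2.3.3, scipy 1.17.1 and matplotlib 3.10.9 were used.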

Additional observations from a re-analysis of the deposited data

How the results depend on the processing

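Drug-only loops of NR6A1, 8 as deposited, numbered 5 with anchors within 1 bin, 4 within 2 bins, 2 with at least 24 counts, 5 with both anchors on the gene and 3 at the gene ends. Those of PDE4D, 5 as deposited, numbered 3, 3 and 0 under the first 3 of these, 3 with the minimum raised by depth and 0 at the gene ends. Those of REEP1, 5 as deposited, numbered 0, 1 and 1, then 2 with the minimum raised by depth, 3 with both anchors on the gene and 0 at the gene ends. Within 2 bins, 3 of the 4 in NR6A1 and 0 of the 1 in REEP1 were also drug-only as deposited. Listed loops of PDE4D were 2.2 times as many in APH as in DMSO, and 1.4 times with the minimum raised by depth. For REEP1 this ratio was 2.12, against 1.19 within 1 bin, 1.25 within 2 bins, 1.38 with the raised minimum and 1 at the gene ends. The REEP1 ratio of HU over H2O, 1.71, became 0 at the gene ends, where HU listed 0 loops and H2O 1. The ratios of listed loops as deposited count the drug-only loops, which add to the drug side alone. Scaling by all listed loops turned the shared-loop log2 ratio of APH vs DMSO to -0.25 in NR6A1, -0.27 in PDE4D and -0.038 in REEP1, and that of H2O vs DMSO to -0.12 in NR6A1. Without scaling, APH vs DMSO was 0.46 in NR6A1 and 0.44 in PDE4D. These shifts are the scaling itself, -0.38 and 0.33 for every APH vs DMSO ratio. The other 96 recomputed drug-only counts, ratios of listed loops and shared-loop ratios stayed within 1.5 times of the value from the lists as deposited, or within its interval. For listed loops of HU over H2O that margin is wide enough to hold a loss of the excess. In NR6A1 this ratio was 1.53, against 1.16 within 1 bin, 1.12 within 2 bins and 1.22 with at least 24 counts. In PDE4D it was 1.42, against 1.17, 1.16 and 1 under these rules. With the minimum raised by depth it was 1.56 in NR6A1 and 1.4 in PDE4D. Leaving out the loop with most counts was chosen after seeing the data. No paired analysis was possible because each group has 1 library, so no library could be left out either. Unlisted pairs have no count, which limits every comparison to called loops.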
